A study of Mus musculus with 2 samples.

Results

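The antioxidant, glutathione and thioredoxin genes are 37 named members of the enzyme systems that remove peroxides and superoxide and keep cellular thiols reduced, and they were taken by gene symbol from the 27179 genes listed in the deposited files. All 37 symbols were found once in each file. The cells were progenitors of group 2 innate lymphoid cells (ILC2), lymphocytes that make type 2 cytokines, and were isolated by flow sorting of bone marrow taken from C57BL/6 mice at 8 weeks. RNA was sequenced in 2 libraries of this 1 group, called pool 1 and pool 2, each from a pool of 8 mice. Neither the substrain, the sex nor the sort antibodies are given in the sources used here, and no other genotype, treatment or time was measured. What can be compared is therefore the level of 1 gene with another and of 1 pool with the other. The pools are replicates of 1 group, so a difference between them is their spread. No p-value is given for any gene, and the binomial test described below covers counting error only.

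Hydrogen peroxide is removed in mammalian cells by catalase, by peroxiredoxins that thioredoxin recharges, and by glutathione peroxidases that glutathione recharges. Superoxide dismutases make that peroxide from superoxide, and NADPH supplies the electrons for both thiol systems. The transcription factor NRF2, held down by KEAP1, is known to raise many genes of these systems under oxidative or electrophilic stress. Lymphocytes use the same enzymes to limit damage from their own metabolism.

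Values are reads scaled by gene length and library size (RPKM), so that levels of different genes are compared per length. The library totals, recovered from the deposited values, were 20216146 reads in pool 1 and 19834586 in pool 2. With these totals, a floor of 3 reads on 1 kb of gene corresponds to 0.148 RPKM in pool 1 and to 0.151 RPKM in pool 2. ILC2 markers were abundant, with all 10 listed genes detected and Gata3 at 292 RPKM in pool 1 and 250.3 RPKM in pool 2. Genes of other marrow cells were present too. Of detected erythroid markers, 10 of 10 were higher in pool 2, where 57.3% of all detected genes were higher, and the summed level of that list was 807 RPKM in pool 1 and 2217 RPKM in pool 2. The neutrophil list summed to 1071 and 2509 RPKM with 10 of 10 higher in pool 2, and the eosinophil list to 59.7 and 659 RPKM with 7 of 7 detected members higher in pool 2. The 10 immediate early genes summed to 9676 RPKM in pool 1 and 553 RPKM in pool 2, and all 10 were at least 2-fold higher in pool 1. The heading inside either file names the other sample, and were those headings correct, the names of the pools would have to be swapped throughout.

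The 37 members, chosen with earlier results of these data known, were a well expressed set. The shares below describe these members and not all genes of their families. Of the related lists described further below, the other glutathione transferases and peroxidases had 12 of 24 genes detected. The list of glutaredoxins, thioredoxin-like proteins and methionine sulfoxide reductases had 18 of 20. Detection was set at a minimum of 1 RPKM in each pool, which 34 of the 37 members reached, against 40.5% of all listed genes. The median member stood at 27.2 RPKM over all 37, and at 35.2 RPKM over the 34 detected, where the median of all 11013 detected genes was 14.6 RPKM. Of the detected members, 9 averaged 100 RPKM or more, a level that 7.14% of detected genes reached, and 24 averaged 20 RPKM or more, which 40.2% reached. Together the members held 0.602% of the summed RPKM in pool 1 and 0.721% in pool 2. The 3 members that were not detected were Nqo1, Gpx8 and Sod3.

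**Figure D1:**
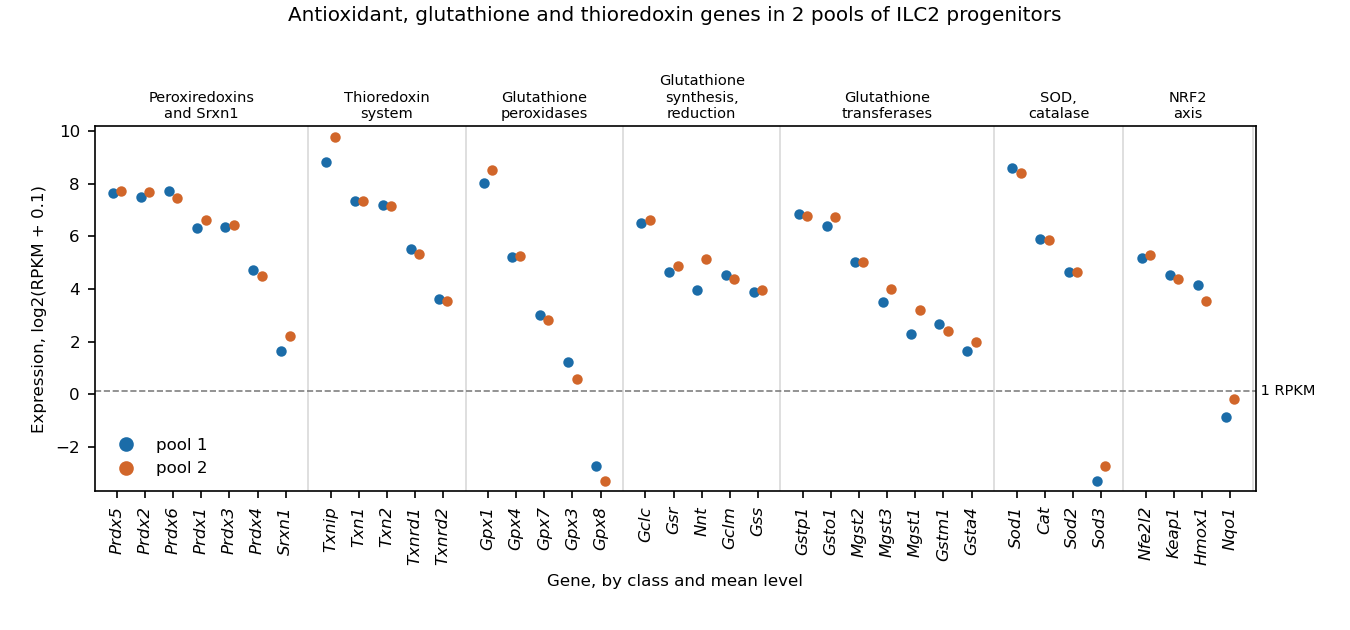
Expression of the 37 members as log2(RPKM + 0.1), with 1 point for each pool (pool 1 left, pool 2 right) and genes grouped by class and ordered by mean level. Txnip is highest and Gpx8, Nqo1 and Sod3 lie below the dashed line at 1 RPKM, while the points of most genes nearly coincide.

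**Figure D2:**
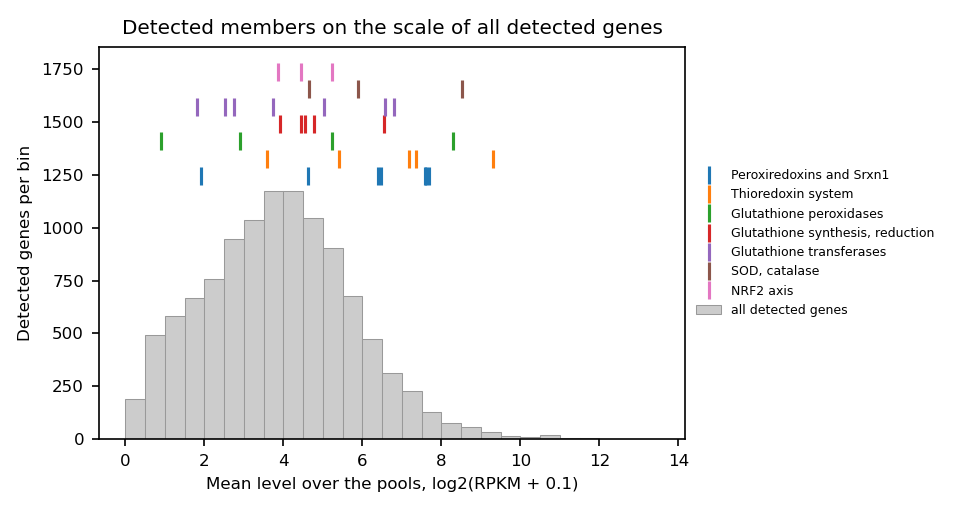
Histogram of the mean level of all detected genes in bins of log2(RPKM + 0.1), with the 34 detected members as coloured ticks in a row for each class above the bars (the height of a row carries no value). Most peroxiredoxin ticks and those of Txnip, Txn1 and Txn2 lie in the upper tail, and glutathione transferase ticks run from the low end (Gsta4) to the upper tail (Gstp1 and Gsto1).

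Peroxiredoxins, which reduce peroxides with a reactive cysteine, were high as a class. All 6 were detected, and 3 of them stood well above the rest. Prdx5, found in mitochondria, peroxisomes and cytosol, was at 198 RPKM in pool 1 and 213 RPKM in pool 2. Prdx2, a cytosolic enzyme that is also very abundant in red cells, was at 182 and 207 RPKM. Prdx6, which takes its electrons from glutathione and not from thioredoxin, was at 212 and 177 RPKM. The ranges of these 3 genes overlapped between the pools, so their order was not resolved.

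The next peroxiredoxins were about as high as each other and lower than the first 3 in both pools. Prdx1, the cytosolic relative of Prdx2, was at 80.7 RPKM in pool 1 and 97.9 RPKM in pool 2, and mitochondrial Prdx3 was at 82.0 and 87.3 RPKM. Prdx4, which acts in the endoplasmic reticulum, was lowest of the 6 at 26.5 and 22.6 RPKM, and the Prdx6 level was 8.00 and 7.83 times that of Prdx4. Srxn1, sulfiredoxin, which restores peroxiredoxins that peroxide has overoxidised, was far lower than its substrates. It stood at 2.99 RPKM in pool 1 and 4.51 RPKM in pool 2, and Prdx1 exceeded it 27.0-fold and 21.7-fold.

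Among the thioredoxin genes, the reductants themselves were even between the pools and the inhibitor was not. Txn1, cytosolic thioredoxin, was at 165 RPKM in pool 1 and 162 RPKM in pool 2, and Txn2, its mitochondrial counterpart, at 147 and 142 RPKM. Their ratio was 1.13 ± 0.014 (SD, n = 2), so the mitochondrial transcript was nearly as abundant per length as the cytosolic one. The reductases that recharge them with NADPH were lower. Txnrd1, the cytosolic selenoenzyme, was at 45.3 and 39.8 RPKM, and mitochondrial Txnrd2 at 12.2 and 11.6 RPKM, a ratio of 3.57 ± 0.19.

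Txnip was the most abundant member in both pools and ranked 67th of all 27179 genes by mean level. It encodes thioredoxin-interacting protein, an alpha-arrestin that binds and inhibits thioredoxin and also restrains glucose uptake. Its gene lies on chromosome 3 (mm10, 96557957 to 96561857). It was at 457 RPKM in pool 1 and 878 RPKM in pool 2, resting on at least 25892 and 48762 reads, so pool 2 was 1.92-fold higher. Txnip alone made up 15.8% of the members' summed RPKM in pool 1 and 25.5% in pool 2. Without it the sums were 2444 and 2562 RPKM, where with it they were 2901 and 3440. Its ratio to Txn1 was 2.78 in pool 1 and 5.41 in pool 2.

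Glutathione peroxidases were spread over a wide range. Gpx1, the cytosolic selenoenzyme that reduces hydrogen peroxide, was at 264 RPKM in pool 1 and 370.4 RPKM in pool 2. Gpx4, the selenoenzyme that reduces lipid peroxides in membranes and guards against ferroptosis, was at 37.5 and 38.1 RPKM, and Gpx1 exceeded it 7.03-fold and 9.73-fold. Gpx7, an enzyme of the endoplasmic reticulum that lacks selenocysteine, was at 7.95 and 6.89 RPKM. Gpx3, the secreted plasma enzyme, was at 2.24 and 1.39 RPKM on at least 69 and 42 reads, 1.57-fold higher in pool 1. Gpx8, the relative of Gpx7 in the same compartment, had at least 1 read in pool 1 and 0 in pool 2, which is under the floor of 3 reads. Every neighbouring pair in this order was apart in both pools.

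Glutathione is made in a first step by glutamate-cysteine ligase and in a second by glutathione synthetase. Gclc, the catalytic subunit of the ligase and its rate-limiting part, was at 91.2 RPKM in pool 1 and 97.5 RPKM in pool 2. Gclm, its modifier subunit, was at 23.1 and 20.8 RPKM, so Gclc exceeded Gclm 3.96-fold and 4.68-fold. Gss, the synthetase, was at 14.7 and 15.3 RPKM, and Gclc was 6.21-fold and 6.38-fold higher. Gsr, the reductase that returns oxidised glutathione to its reduced form, was at 25.0 and 29.4 RPKM.

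Nnt was the 1 member at least 2-fold apart between the pools. It encodes the mitochondrial transhydrogenase that makes NADPH from NADH, and its gene lies on chromosome 13 (mm10, 119335527 to 119409257). Nnt was at 15.6 RPKM in pool 1 and 34.8 RPKM in pool 2, on at least 1111 and 2436 reads, and the ratio of pool 1 to pool 2 was 0.449 (95% counting interval 0.416 to 0.481). The C57BL/6J substrain is known to carry a deletion of several Nnt exons that other C57BL/6 substrains lack. The files give 1 value per gene, so single exons were not analysed here.

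Glutathione transferases, which attach glutathione to electrophiles, included a pair of abundant genes and a long tail. Gstp1 was at 114 RPKM in pool 1 and 109 RPKM in pool 2. Its near-identical copy Gstp2 was listed at 1.71 and 2.08 RPKM, and how reads shared by the copies were counted is not given in the sources used here. Gsto1, of the omega class that reduces dehydroascorbate, was at 83.5 and 108 RPKM. The cytosolic Gstm1 and Gsta4 were low, at 6.31 and 5.14 RPKM for Gstm1 and at 2.99 and 3.84 RPKM for Gsta4, the enzyme that conjugates the lipid peroxidation product hydroxynonenal.

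Of the microsomal transferases, Mgst1 and Mgst3 differed more between the pools than Mgst2 did. Mgst2, which can also make leukotriene C4, was even, at 32.4 RPKM in pool 1 and 32.7 RPKM in pool 2. Mgst3 was at 11.1 and 15.7 RPKM, and Mgst1 at 4.83 and 8.98 RPKM, so Mgst1 was 1.84-fold higher in pool 2 on at least 92 and 168 reads. The ranges of Mgst1 and Gstm1 overlapped, and those of all other neighbours in this class did not.

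Of the superoxide dismutases, the cytosolic form dominated. Sod1 was at 392 RPKM in pool 1 and 344 RPKM in pool 2 and was the second most abundant member by mean level. Sod2, the mitochondrial manganese enzyme, was at 25.1 and 24.7 RPKM, and Sod1 exceeded it by 14.8 ± 1.2-fold (SD, n = 2). Sod3, the secreted form, had 0 reads in pool 1 and at least 2 in pool 2, also under that floor. Cat, catalase of the peroxisome, was at 60.4 and 57.5 RPKM, and its ratio to Gpx1 was 0.229 and 0.155.

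**Figure D3:**
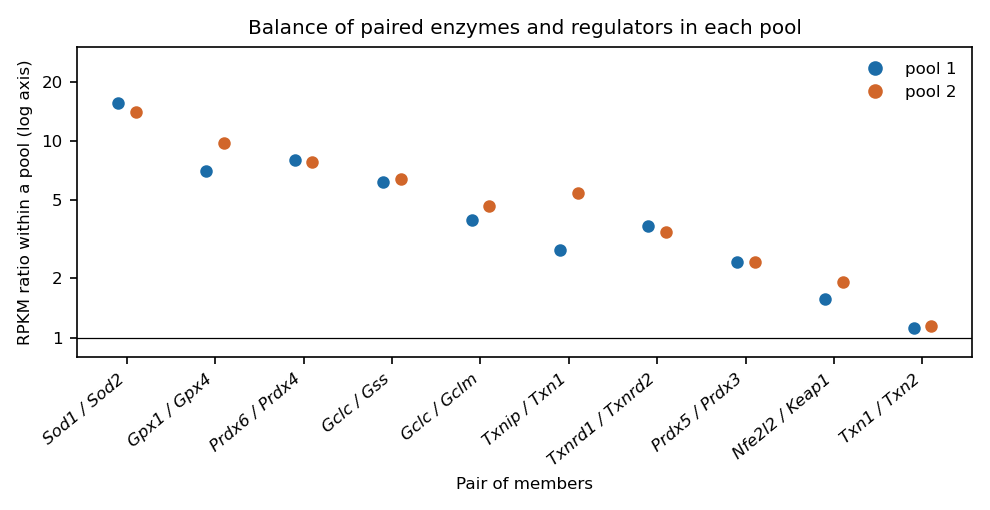
Ratio of RPKM between paired members within each pool on a log axis, with pool 1 left and pool 2 right for each pair. Of the 10 pairs plotted, Sod1 to Sod2 has the highest ratio at 15.6 and 14.0 and Txn1 to Txn2 the lowest at 1.12 and 1.14, and Txnip to Txn1, at 2.78 and 5.41, differs most between the pools.

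The NRF2 regulators were expressed, and genes known as NRF2 targets ranged from abundant to not detected. Nfe2l2, which encodes NRF2, was at 35.9 RPKM in pool 1 and 39.6 RPKM in pool 2. Keap1, whose product directs NRF2 to degradation, was at 22.9 and 20.7 RPKM, and Nfe2l2 exceeded it 1.57-fold and 1.91-fold. Gclc, Prdx1, Txnrd1 and Gclm, all described above and all known targets, averaged between 21.9 and 94.4 RPKM. Srxn1, another target, averaged 3.75 RPKM. These target genes were picked out after their values were seen.

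The remaining members are both textbook targets of NRF2. Nqo1, the quinone reductase often used as a marker of NRF2 activity, was at 0.446 RPKM in pool 1 and 0.780 RPKM in pool 2, on at least 7 and 12 reads. Hmox1, haem oxygenase, which breaks down haem, was at 17.8 and 11.6 RPKM, on at least 284 and 181 reads. Hmox1 was thus 1.53-fold higher in pool 1. The macrophage markers C1qa and C1qb, of cells known to express Hmox1, were at 5.44 and 2.05 RPKM in pool 1 and at 5.73 and 1.38 RPKM in pool 2. The whole monocyte and macrophage list summed to 130.2 RPKM in pool 1 and 225 RPKM in pool 2, of which Lyz2 alone held 107 and 198 RPKM. Of its 8 detected markers, 6 were higher in pool 2, where 57.3% of all detected genes were, and 2 were higher in pool 1, as Hmox1 was. The part of such cells in the Hmox1 values was not tested, nor was that of the immediate early genes, which were higher in pool 1.

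NRF2 binds with small MAF proteins to the antioxidant response element, whose core reads TGACNNNGC. RefSeq promoter sequences (GRCm38.p6, 250 bases before to 50 after each start site) were at hand for 30 of the 37 members. The core was searched on both strands and was present for 7 of these 30 (23.3%). The share was 14.0% of all 27025 genes with a promoter and 17.2% of the 8406 detected ones. Nqo1 was searched and had no match. Gclc, Gsr, Gsta4, Hmox1, Nnt, Prdx6 and Sod3 had no sequence at hand and were not searched. The stricter form TGACTCAGC, of the same length with the N positions fixed, is contained in the core search. It was present for 1 member, Prdx1, and for 0.503% of all genes. The stretches around the 7 matches are shown because they let the core be read beside the level of each gene. Each is given on the strand where it reads TGACNNNGC, with the match in capitals.
Prdx1 (chr4:116685446-116685494, minus strand): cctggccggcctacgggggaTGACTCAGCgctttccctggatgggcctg
Txnrd1 (chr10:82859094-82859142, minus strand): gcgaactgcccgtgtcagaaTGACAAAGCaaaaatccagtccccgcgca
Gclm (chr3:122245403-122245451, minus strand): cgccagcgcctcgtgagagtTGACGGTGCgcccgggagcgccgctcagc
Sod1 (chr16:90220686-90220734, minus strand): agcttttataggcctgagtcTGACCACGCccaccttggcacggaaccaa
Nfe2l2 (chr2:75704875-75704913, minus strand): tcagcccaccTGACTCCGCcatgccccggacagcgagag
Mgst1 (chr6:138140451-138140499, minus strand): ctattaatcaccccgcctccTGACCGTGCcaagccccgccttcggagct
Srxn1 (chr2:152105532-152105573, minus strand): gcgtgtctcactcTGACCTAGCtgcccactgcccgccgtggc

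The 7 genes with a match did not share a level. Sod1 averaged 368 RPKM and Prdx1 89.3 RPKM, while Mgst1 averaged 6.90 RPKM and Srxn1 3.75 RPKM. Nor did they share a direction between the pools. Sod1, Txnrd1 and Gclm were higher in pool 1 and the other 4 in pool 2. The Srxn1 match lies after the start site, at bases 29 to 37, the Prdx1 match before it, at bases -133 to -125, and the Txnrd1 and Mgst1 matches each in the window of 1 of several start sites. A match of these letters is a description and not a binding site.

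Between the pools, the median member differed about as much as the median of all detected genes. Of the 34 detected, 1 was at least 2-fold apart, against 2.56% of all detected genes (pool 1 was the higher in 0.962% and pool 2 in 1.6%), and that was Nnt, higher in pool 2. At 1.5-fold, 5 of 34 were apart (14.7%), against 8.45% of detected genes (pool 1 was the higher in 2.6% and pool 2 in 5.86%). The 5 were Nnt, Txnip and Mgst1 on the side of pool 2, and Gpx3 and Hmox1 on that of pool 1. Srxn1 lay just inside at 1.49-fold higher in pool 2. The median absolute log2 ratio was 0.19 for the members and 0.17 for all detected genes, and 16 members were higher in pool 1 and 18 in pool 2, where 42.7% and 57.3% of detected genes were. An exact binomial test of the recovered reads, adjusted by the Benjamini-Hochberg method over all detected genes, passed 19 of the 34 members, against 45.3% of detected genes. That test, with a cutoff of 0.05 on the adjusted p, compares these 2 libraries and covers counting error only.

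**Figure D4:**
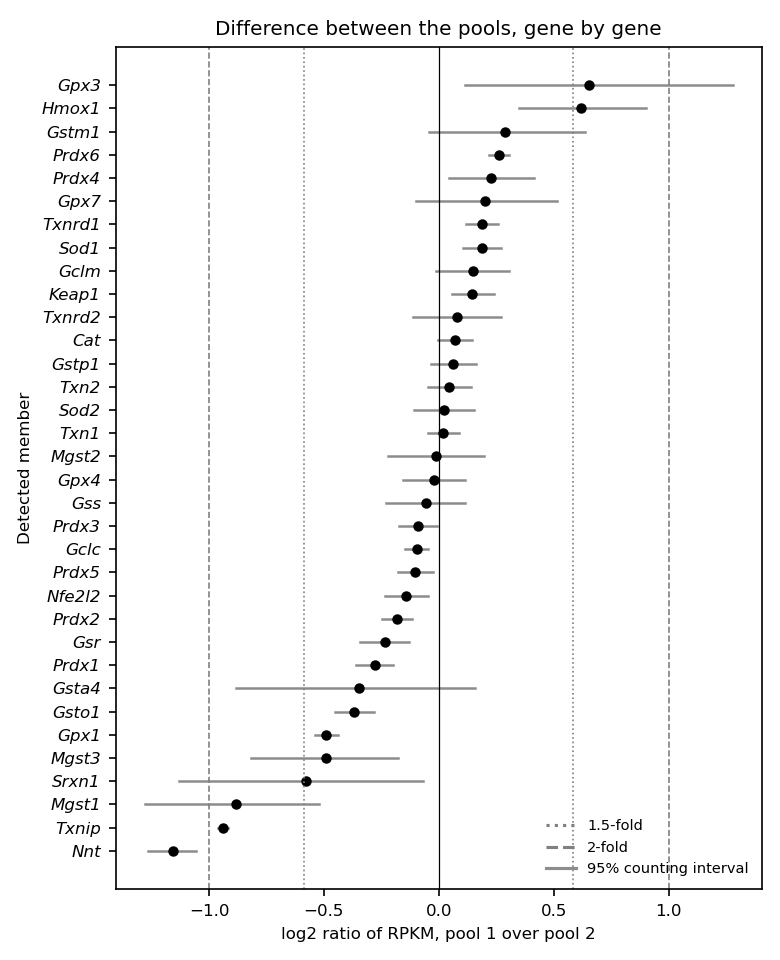
Log2 ratio of RPKM, pool 1 over pool 2, for the 34 detected members (points) with 95% counting intervals from the recovered reads (lines) and dotted and dashed lines at 1.5-fold and 2-fold. Nnt lies beyond the 2-fold line toward pool 2, Txnip just short of it, and most genes lie within the dotted lines.

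Some members are known to be abundant in other marrow cells, and their values are set here beside markers of those cells. Gpx1 was 1.40-fold and Prdx2 1.13-fold higher in pool 2, where erythroid markers were higher, whereas Cat, also abundant in red cells, was at 60.4 RPKM in pool 1 and 57.5 RPKM in pool 2. The erythroid markers Hba-a2 and Alas2 were at 284 and 21.5 RPKM in pool 1, and at 830.4 and 77.7 RPKM in pool 2. Mgst1 was higher in pool 2 together with neutrophil and eosinophil markers. The secreted Gpx3, a low member, was higher in pool 1 on at least 69 and 42 reads. The stromal and endothelial list summed to 89.6 RPKM in pool 1 and 29.5 RPKM in pool 2, through Col1a1 at 40.5 and 0.889 RPKM, Col1a2 at 18.7 and 0.451 RPKM and Sparc at 8.50 and 0.461 RPKM. Its 1 detected member of 10, Pecam1, was higher in pool 2, at 21.2 RPKM in pool 1 and 26.5 RPKM in pool 2, as was Pdgfrb at 0.174 and 0.820 RPKM. No marker of the erythroid, neutrophil, eosinophil or stromal lists was at 0 in both pools. The part of these cells in the values of the members was not tested, and more cells of a type and more RNA per cell cannot be told apart in bulk RNA.

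Genes around these systems were described from 9 lists of 126 genes, of which 95 were detected. Maff and Mt2 were the 2 of those 95 at least 2-fold apart, a share near the 2.56% of all detected genes. Among other NRF2 regulators, 10 of 11 were detected. Sqstm1, the autophagy receptor that can release NRF2 from KEAP1, led at 188 RPKM in pool 1 and 195 RPKM in pool 2, ahead of Cul3, the ubiquitin ligase scaffold that KEAP1 serves, at 57.7 and 59.4 RPKM. The lowest was Nfe2l3, at 0.0972 and 0.0991 RPKM. Maff, a small MAF partner of NRF2, was 3.07-fold higher in pool 1, at 13.4 RPKM in pool 1 against 4.31 RPKM in pool 2. Its relatives Mafk and Mafg were even, at 18.6 and 11.3 RPKM in pool 1 and at 17.8 and 11.8 RPKM in pool 2.

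The enzymes that supply NADPH were detected in 10 of 11 cases and none was 2-fold apart. Taldo1 and Tkt, of the non-oxidative pentose phosphate pathway, were at 187 and 137 RPKM in pool 1 and at 197 and 122 RPKM in pool 2. Me1, cytosolic malic enzyme, was lowest, with at least 1 read in pool 1 and none in pool 2. For glutathione precursors and turnover, 7 of 15 genes were detected. Slc3a2, the heavy chain of several amino acid transporters, was at 166 and 171 RPKM, and Slc1a5, a glutamine transporter, at 51.0 and 44.4 RPKM. Slc7a11, the cystine transporter that pairs with Slc3a2, was at 0.129 and 0.120 RPKM. Cth and Cbs, which make cysteine from homocysteine, and Chac1, which degrades glutathione, were listed at 0 in both pools.

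Of the other transferases and peroxidases, 12 of 24 were detected, and Gstt2 and Alox5ap led at 16.0 and 12.0 RPKM in pool 1 and at 16.7 and 17.9 RPKM in pool 2. A further 7, among them Gsta1 and Gpx6, were listed at 0. Glutaredoxins, thioredoxin-like proteins and methionine sulfoxide reductases were detected in 18 of 20 cases. Of the 18, 14 were higher in pool 2, a larger share than the 57.3% of all detected genes. The median log2 ratio of pool 1 over pool 2 was -0.14 for this list and -0.04 for all detected genes. Txndc12 and Txndc5, which act in the endoplasmic reticulum, were at 48.9 and 55.9 RPKM in pool 1 and at 60.4 and 50.5 RPKM in pool 2, and Glrx5 was lowest at 0.479 and 0.163 RPKM.

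Selenium enters Gpx1, Gpx3, Gpx4, Txnrd1 and Txnrd2 as selenocysteine, and 13 of 14 genes on the selenoprotein list were detected. Sepw1 was at 412 RPKM in pool 1 and 384 RPKM in pool 2, and Sepp1, which encodes the secreted selenium carrier, at 257 and 354 RPKM. Dio2, a deiodinase, was lowest at 0.578 and 0.624 RPKM. All 7 alpha-arrestins and sestrins were detected. Sesn1, a stress-induced regulator, was at 105 RPKM in pool 1 and 186 RPKM in pool 2, and Arrdc4, a close relative of Txnip, at 19.1 and 27.9 RPKM, so both lay on the same side as Txnip. Arrdc1, at 44.3 and 42.5 RPKM, Arrdc2, at 6.68 and 6.08 RPKM, and Arrdc3, at 6.56 and 6.07 RPKM, lay on the other side. Of the 7 genes, 3 were higher in pool 1 and 4 in pool 2. Sesn2 was lowest at 2.46 and 3.17 RPKM.

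Iron and haem genes were detected in 11 of 11 cases. Fth1, the ferritin heavy chain, was at 929 RPKM in pool 1 and 940.3 RPKM in pool 2, Ftl1, the light chain, at 100.4 and 96.2 RPKM, and Mt2, a metallothionein, lowest at 1.16 and 2.45 RPKM. Hmox2, the constitutive haem oxygenase, was at 42.4 and 48.5 RPKM, above inducible Hmox1 in both pools. For the NADPH oxidases, which make superoxide, 7 of 13 genes were detected. Cyba and Rac2 were at 621 and 502 RPKM in pool 1 and at 623 and 463 RPKM in pool 2. Cybb, the catalytic subunit of the phagocyte oxidase, was at 19.8 and 32.5 RPKM, while Nox4, Nox3, Duox1 and Duox2 were listed at 0.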

How the data were processed

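RNA of sorted ILC2 progenitors was sequenced in 2 libraries, each a pool of 8 mice, from 100 ng of total RNA per the labels' protocols. The authors deposited RPKM for each gene and library. Per the submitters' processing notes, CASAVA 1.8.2, featureCounts, edgeR 3.8.2, edgeR 3.22.0 and mm10 were named without a role for each, and no aligner, strand setting or treatment of shared reads is stated in the sources used here. Of 2 column headings, 0 matched their own sample, so files were matched to samples by their deposition, with pools numbered in accession order. Whether differences between the libraries are technical is not known.

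From the deposited values, library totals and whole reads were recovered by a search for totals and gene lengths (20 to 130000 bases) that give whole reads within the rounding of the values. This succeeded for 17233 of 17233 genes above 0 (100%), against 11.5% of 1000 genes with totals wrong by 1 part in 1000. The scale of the totals was chosen by annotated gene lengths, which 191 of 2146 genes matched, against 68 at the next best scale. The reads are lower bounds and sum to 90.0% and 89.8% of the totals. With 1 library a side no count model could be fitted, and pools were compared by fold on log2(RPKM + 0.1), pool 1 over pool 2, which understates differences of low genes. Intervals are 95% Clopper-Pearson intervals of the ratio and cover counting error only. Reads without molecular identifiers are not independent molecules. Gene coordinates came from RefSeq (GRCm38.p6, the build of mm10), where all 37 members matched by Entrez ID. The recovery and the binomial test were tested on simulated data. The members and lists were chosen with earlier results of these data known. Values are named for members averaging at least 20 RPKM, for members 1.5-fold apart, for the lowest of each class, and for the 2 highest and the lowest gene of each other list plus genes 2-fold apart there at a mean of 5 RPKM or more. Further genes were chosen after their values were seen. Python 3.11.15, numpy 2.4.6, pandas 2.3.3, scipy 1.17.1 and matplotlib 3.10.9 were used. Alternatives covered the pseudocount, filter, scaling, fold, unit, motif and leaving out each pool.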

Additional observations from a re-analysis of the deposited data

How the results depend on the processing

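The median level of the members was 4.77 (log2(RPKM + 0.1)). It moved by more than the SD of the 2 pool medians with RPKM rescaled to equal sums, as in TPM (5.82, by the rescaling itself). The same held over the 34 detected members alone (5.13, by leaving out the 3 lowest). Leaving out pool 2 gave 4.73, and leaving out pool 1 gave 5.04, which also moved by more than that SD. The count of members 2-fold apart was 1 under each filter, pseudocount and scaling and 5 at 1.5-fold, the lower fold itself. The members' share was 0.565% of recovered reads, where it was 0.602% and 0.721% of summed RPKM. The stricter motif TGACTCAGC was present for 1 member and the core for 7. Leaving out each pool in turn gave 34 detected members either way and a share of 0.602% to 0.721%. A threshold of 5 RPKM left 30 members detected. Scaling moved ratios by at most 0.047 (log2), and turned the direction between the pools for Gpx4 and Mgst2, which differed by less than counting error. The median log2 ratio of the members was -0.02 and lay between -0.03 and 0.03 under the alternatives. The other member ratios stayed within counting error under every scaling, except that Txnip and Prdx6, with the narrowest intervals, moved to -0.90 and 0.30 with the median ratio set to 1, and to -0.89 and 0.31 with trimmed means. No paired analysis was possible because there is 1 group. Depth limits Nqo1, Gpx8 and Sod3, the members with the fewest reads.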
